A study of Drosophila melanogaster with 2 samples.

Results

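The proteasome subunit genes were taken as the protein-coding genes of the fly genome assembly dm6 whose symbol begins with Rpn or Rpt and a digit, with Prosalpha or with Prosbeta. The rule gave 48 of the 13968 protein-coding genes. By their symbols, 32 were constitutive subunits (7 of the alpha ring, 7 of the beta ring, 10 of the base and 8 of the lid), and 16 carried a further suffix and are second copies of a subunit gene. The question was at which of these genes CG4404 was found. CG4404 is a Drosophila melanogaster protein known here only by its gene number. Its binding was mapped by ChIP-seq, the sequencing of DNA that is pulled down with a protein, in whole embryos collected 0 to 4 h after laying. The embryos came from transgenic flies, labelled strain CG4404-GFP, that make CG4404 fused to eGFP, and the pull-down used an antibody against the GFP tag on chromatin sonicated to 200 to 800 bp. There were 2 biological replicates of 1 group, and neither a second group nor a control library was analysed here. Enrichment over input therefore could not be checked, and no comparison between conditions was possible.

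The 26S proteasome is the protease that degrades proteins tagged with ubiquitin chains. Its core particle is a barrel of stacked rings, with alpha subunits (Prosalpha genes) in the outer rings that form the gate and beta subunits (Prosbeta genes) in the inner rings that hold the catalytic sites. The regulatory particle that caps the barrel has a base of ATPases (Rpt genes) and of scaffold and ubiquitin-receptor subunits, and a lid of further Rpn subunits, among them the deubiquitinase Rpn11, which cuts the ubiquitin chain from the substrate. Every cell needs the constitutive subunits, early embryos receive much of their supply from the mother, and several second copies are known as testis forms.

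The pooled replicates gave 3892 peaks that passed the authors' threshold on the irreproducible discovery rate (IDR, a measure of how poorly a peak recurs when 2 sets of calls are ranked against each other), 3835 of them on the 7 chromosome arms. A gene was counted as bound when the summit of such a peak lay within 500 bp of one of its transcription start sites (TSSs). The sequence around the summit is shown for 4 bound members. Rpn5, Prosbeta2 and Rpn3 are shown because their peaks passed in both replicates, and Rpn11 because its peak lay near no other protein-coding start. Each run covers up to 149 bp either side of the summit, less any annotated UTR, and is read 5′ to 3′ on the member's own strand from the dm6 sequence of RefSeq. The Rpn3 run stops short of its summit, which lies at 19051795 in the 5′ UTR, and of the Ohler 7 sites downstream of it. Capitals mark TATAAA on either strand, the DRE word TATCGATA and the core promoter motif Ohler 7. The runs are chr3R:5789088-5789328 (plus strand) for Rpn5, chr3L:14999667-14999942 (plus) for Prosbeta2, chr2L:19051646-19051789 (plus) for Rpn3 and chr2L:5059872-5060170 (minus) for Rpn11. A last line gives the DRE site of Rpn3 at chr2L:19051856-19051883 (plus), which lies in the 5′ UTR of the longer transcript.
Rpn5: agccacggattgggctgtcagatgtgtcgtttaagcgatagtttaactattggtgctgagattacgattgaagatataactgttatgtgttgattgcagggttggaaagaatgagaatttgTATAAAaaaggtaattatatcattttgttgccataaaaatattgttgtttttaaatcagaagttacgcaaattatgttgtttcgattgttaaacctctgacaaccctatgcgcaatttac
Prosbeta2: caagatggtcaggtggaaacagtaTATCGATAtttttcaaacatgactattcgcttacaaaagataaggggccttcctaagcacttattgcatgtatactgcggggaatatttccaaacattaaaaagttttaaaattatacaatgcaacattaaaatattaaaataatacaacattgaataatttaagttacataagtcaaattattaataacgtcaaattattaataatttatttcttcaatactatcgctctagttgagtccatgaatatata
Rpn3: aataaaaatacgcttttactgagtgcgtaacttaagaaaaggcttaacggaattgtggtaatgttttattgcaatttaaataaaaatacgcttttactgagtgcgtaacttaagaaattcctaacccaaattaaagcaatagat
Rpn11: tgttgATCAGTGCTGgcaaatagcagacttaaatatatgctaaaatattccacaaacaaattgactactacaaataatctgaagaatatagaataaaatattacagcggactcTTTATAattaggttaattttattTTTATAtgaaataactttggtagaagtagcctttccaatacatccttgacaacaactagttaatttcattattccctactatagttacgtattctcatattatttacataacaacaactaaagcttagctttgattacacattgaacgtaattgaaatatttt
Rpn3 DRE site: ccgtaaaacgTATCGATAaattgaaacg

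In the 201 bp around the summit, A and T made up 75.1% of the bases at Prosbeta2, 74.1% at Rpn11, 70.6% at Rpn3 and 69.2% at Rpn5, against a median of 64.7% over all summits. At the member summits not printed, the stronger Rpn13 peak had 72.1%. Rpn6 (63.2%), Prosalpha3 (59.7%) and the weaker Rpn13 peak (56.7%) lay below that median. The Rpn3 run holds a direct repeat, in which its first 39 bases recur without a mismatch from base 79 of the run onward. The longest direct repeats in the other runs were 16 bp in Prosbeta2, 10 bp in Rpn11 and 8 bp in Rpn5. The TATA word stood close to the summit in Rpn5, 23 to 28 bp upstream of it, and in Rpn11, where 1 copy ended 8 bp and another 31 bp upstream of the summit.

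CG4404 was found at 7 of the 48 proteasome subunit genes (14.6%), against 1984 of 13968 protein-coding genes (14.2%). The share of the whole list was thus near that of all genes. The 7 were the lid genes Rpn5, Rpn3, Rpn6 and Rpn11, the ubiquitin receptor gene Rpn13 of the base, the beta ring gene Prosbeta2 and the alpha ring gene Prosalpha3. By particle, 4 of 8 lid genes were bound (50%), 1 of 10 base genes (10%), 1 of 7 alpha ring genes (14.3%) and 1 of 7 beta ring genes (14.3%). None of the 16 second copies was bound, and for 16 genes a count of 0 allows a share of up to 18.8% (3 counts, counting error only). Among the constitutive subunits 7 of 32 were bound (21.9%), and among the 40 members outside the lid 3 were (7.5%). These are counts of few genes in a single group, no test was run on them, and whether the lid differs from the rest of the particle was not tested.

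**Figure D1:**
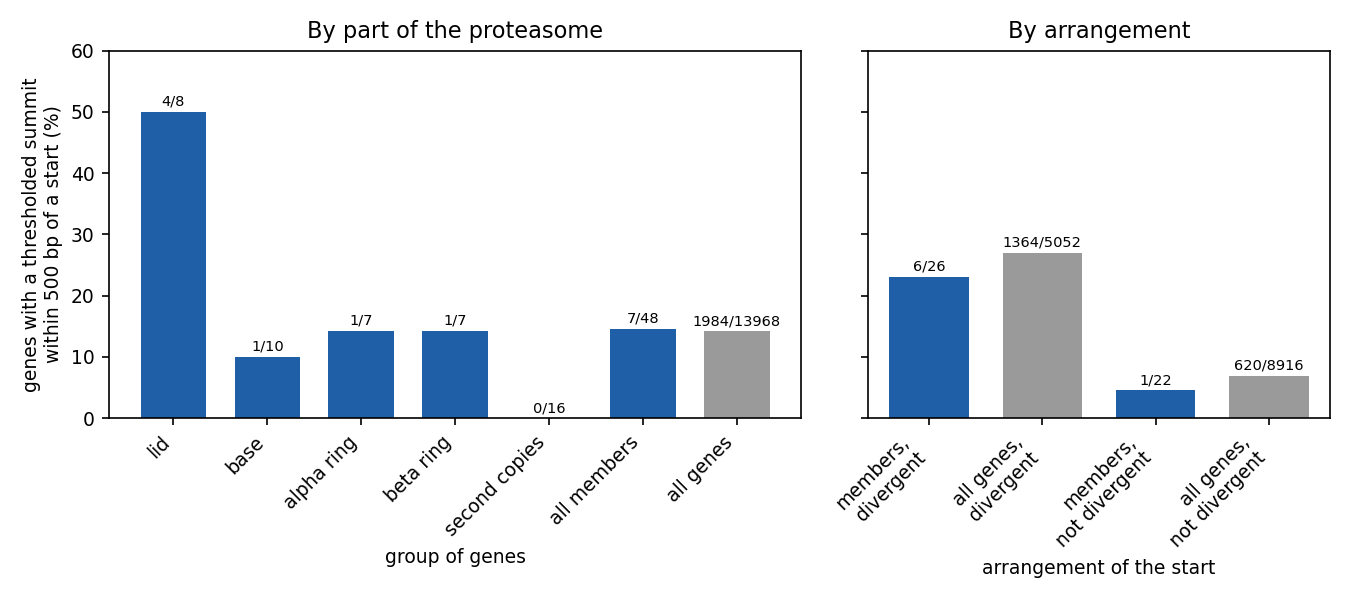
Percent of genes with a summit of the pooled thresholded list within 500 bp of a TSS, with the counts above the bars; the left panel gives each part of the proteasome, all members and all protein-coding genes, and the right panel splits members and all genes by whether an opposite start lies head to head within 1000 bp (divergent). The lid stands at 4 of 8 genes (50%), while all members (14.6%) stand near all protein-coding genes (14.2%).

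The strongest of the peaks was at the lid gene Rpn5, and the next was at Prosbeta2 of the beta ring, above those of the other bound lid genes. Rpn5, a scaffold subunit of the lid (FBgn0028690, 3R, 5789493 to 5791569, plus strand), had a peak at 5789142 to 5789239 with a signal of 266. Signal here is the authors' deposited value for a peak, on a scale that is not stated, and it was compared only within one list. In the pooled list the Rpn5 peak ranked number 668 of 3835. Replicate 1 gave it 153 and replicate 2 gave 106 (129 ± 33.0, SD, n = 2), so both replicates held the peak. The summit lay 256 bp upstream of the Rpn5 TSS, at the edge of a narrow peak of 98 bp. It fell inside an intron of Hat1, the neighbouring gene of a histone acetyltransferase, 147 bp downstream of the Hat1 TSS.

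Rpn3, another scaffold subunit (FBgn0261396, 2L, 19051790 to 19053681, plus strand), had a peak at 19051603 to 19051986 with a pooled signal of 141 (rank 1556). Its values were 85.7 in replicate 1 and 53.8 in replicate 2 (69.8 ± 22.5, SD, n = 2). Its summit lay 5 bp downstream of a TSS, in the 5′ UTR, the smallest distance among the bound members. The peak also fell within the window of l(2)37Bb, whose TSS was 183 bp away on the other strand.

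Rpn6 (FBgn0028689, 2R, 14750166 to 14752910, minus strand), also a lid scaffold subunit, had a peak at 14752212 to 14752595 with a pooled signal of 129 (rank 1726). The list that compares the replicates gives it 76.3 and 47.9 without saying which replicate is which (62.1 ± 20, SD, n = 2). The thresholded list of replicate 1 held the peak with 76.3. Neither the thresholded nor the ranked list of replicate 2 alone had a peak that overlapped it, although the pair holds a second value. The summit lay 133 bp upstream of the inner of its 2 TSSs and inside an intron of the longer transcript, and 117 bp from the TSS of ave, a gene of Ras signalling on the opposite strand. With the 5′ end of the gene record as the only TSS, Rpn6 was not bound.

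Rpn11 (FBgn0028694, 2L, 5058404 to 5059790, minus strand), the lid deubiquitinase, had a peak at 5059829 to 5060212 with a pooled signal of 112 (rank 2039). Its pair of values was 54.1 and 53.5 (53.8 ± 0.390, SD, n = 2), the closest pair among the 7 genes. The peak nevertheless passed the threshold in replicate 2 alone, with 53.5, and not in replicate 1, where it was ranked with 54.1 and a −log10 IDR of 0.07 against the 2 that the threshold asks for. The threshold thus did not follow the signal alone. The summit lay 231 bp upstream of the TSS, and no other protein-coding gene started within 500 bp of it.

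The 4 other lid genes were not bound. Rpn8, the partner of Rpn11, had a ranked signal of 28.8 (pair 19.8 and 9.13). The scaffold genes Rpn12 (26.2, pair 19 and 13.2), Rpn9 (24.7, pair 15.8 and 12.5) and Rpn7 (17.9, pair 10.9 and 9.68) were no higher. Both values of each of these genes lay below both values of each bound lid gene. Being bound was itself decided from the ranking of these peaks, so the gap is no separate support for the split. All 8 lid genes had a summit within 500 bp in the full ranked list, but so did 10046 of the 13968 protein-coding genes (71.9%), because that list holds 131853 candidate peaks. In it 32 of the 48 members (66.7%) had a summit, 24 of the 32 constitutive subunits (75.0%) and 8 of the 16 second copies (50%). In the ranked list that compares the replicates, with 131104 candidates, 30 of 48 members (62.5%) and 71.7% of protein-coding genes had one.

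**Figure D2:**
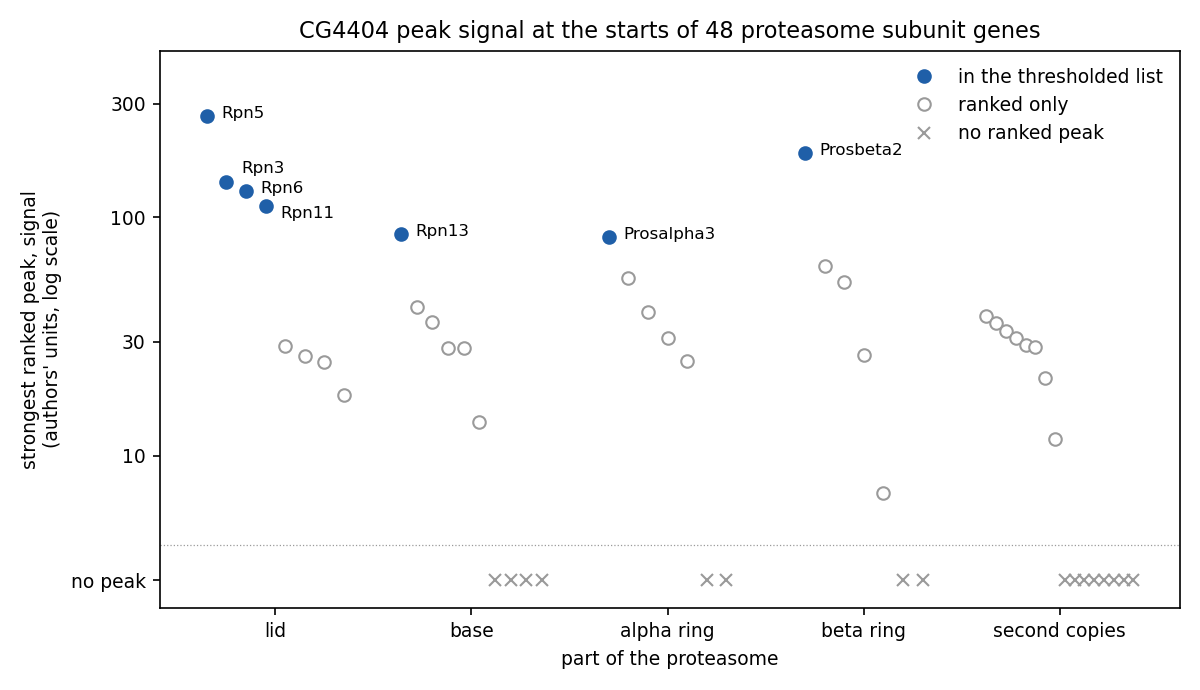
Signal of the best pooled peak within 500 bp of a TSS for each of the members, grouped by particle on the horizontal axis, with signal as the authors deposited it on a log vertical axis; filled points passed the authors' threshold, open points were ranked only and crosses mark members with no ranked peak. Rpn5 stands highest at 266 and Prosalpha3 is the lowest of the bound genes at 82.5.

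In the core particle, Prosbeta2 and Prosalpha3 were bound. Prosbeta2 encodes the beta subunit with the trypsin-like catalytic site (FBgn0023174, 3L, 14999951 to 15001319, plus strand). Its peak at 14999601 to 14999984 had a pooled signal of 187 (rank 1082), with 101 in replicate 1 and 84.1 in replicate 2 (92.4 ± 11.8, SD, n = 2). The summit lay 158 bp upstream of the TSS and nearer to the divergent neighbour mRpL39, a gene of the mitochondrial ribosome, whose TSS was 127 bp away.

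Prosalpha3 encodes an outer ring subunit (FBgn0261394, 2R, 20994900 to 20996118, plus strand). Its peak at 20994676 to 20995059 had a pooled signal of 82.5 (rank 2800). The replicate pair was 60.2 and 22.2 (41.2 ± 26.9, SD, n = 2), the widest gap relative to its mean among the 7 genes. Replicate 1 held the peak past the threshold at 60.2, and replicate 2 only ranked it, at 22.2. In the list that compares the replicates its −log10 IDR was 0.36, and the conservative list did not hold it. The summit lay 32 bp upstream of the TSS and 487 bp from the TSS of dgt3, a gene of the augmin complex of the spindle.

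In the base, only Rpn13 was bound. Rpn13 encodes a ubiquitin receptor (FBgn0033886, 2R, 13958545 to 13960404, minus strand). Its stronger peak at 13960282 to 13960665 had a pooled signal of 85.0 (rank 2727) and a pair of 57.7 and 30.5 (44.1 ± 19.3, SD, n = 2), and neither replicate held it past the threshold alone. Its summit lay 70 bp upstream of an Rpn13 TSS and 201 bp from the TSS of CtsL1, which encodes a lysosomal cysteine protease. A second, overlapping peak with its summit 1 bp from the CtsL1 TSS had a signal of 4.29 (rank 3798), far below the list's median of 118. None of the 6 ATPase genes Rpt1 to Rpt6 was bound, nor were the large scaffold genes Rpn1 and Rpn2 or the ubiquitin receptor gene Rpn10.

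Fewer of the bound members than of bound genes in general passed in every list. Of the 7 bound members 3 (42.9%), Rpn5, Prosbeta2 and Rpn3, were bound in each of the 4 thresholded lists (pooled, conservative and each replicate), against 1277 of 1984 bound protein-coding genes (64.4%). In signal, the median of the strongest peak was 129 over the 7 bound members and 159 over the bound protein-coding genes. Of the 8 peaks at members, 3 overlapped a thresholded peak of both replicates. These are descriptions of a few peaks, with no test.

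**Figure D3:**
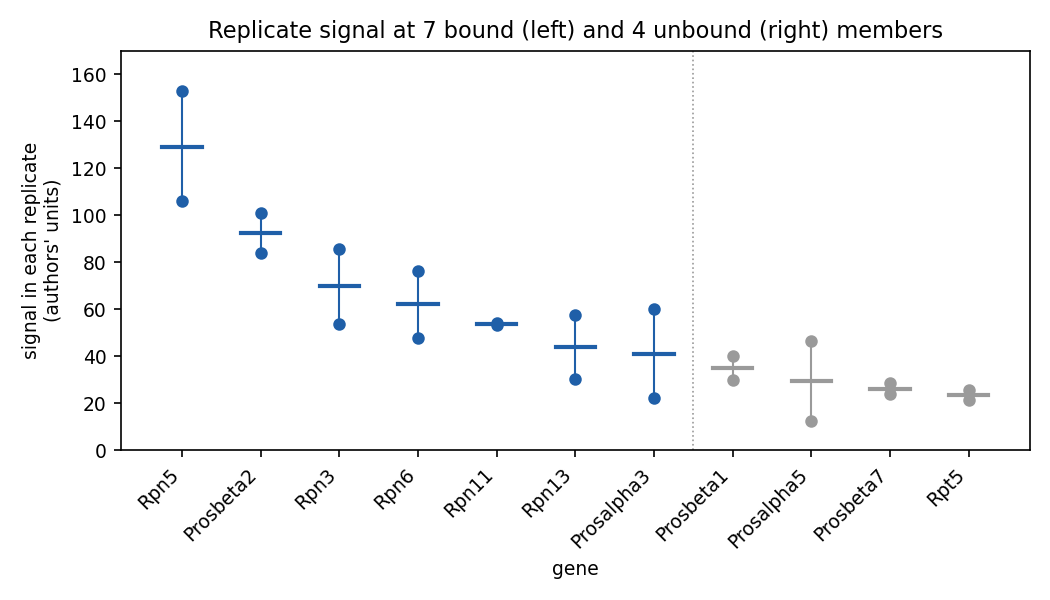
The pair of replicate signal values for each bound member (left) and the 4 unbound members of highest −log10 IDR in either pooled ranked list (right), all read from the ranked list that compares the replicates, on a vertical axis of deposited signal, with a horizontal bar at the mean of the pair; the list does not say which value belongs to which replicate. The 2 values lie together for Rpn11 (54.1 and 53.5) and far apart for Prosalpha3 (60.2 and 22.2).

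Of the members that were not bound, 4 are named by their highest −log10 IDR in either pooled ranked list, and the lists differed on them. Prosbeta1, the beta subunit with the caspase-like site, had a ranked signal of 62.8 with a pair of 40.0 and 29.9. Its −log10 IDR was 2.10 in the list that compares the replicates and 0.18 in the list behind the pooled one, so the conservative list held Prosbeta1 and did not hold Prosalpha3. The strongest peak of Prosalpha5 (signal 55.6, pair 46.5 and 12.7) had 0.12 in the list that compares the replicates and 1.14 in the other. That of Prosbeta7 (53.6, pair 28.5 and 24.1) had 1.13 and 1.11, and that of Rpt5 (42.0, pair 25.5 and 21.6) had 0.94 and 0.10. In the list behind the pooled one the bound members of lowest −log10 IDR were Prosalpha3 at 2.56, Rpn13 at 2.76 and Rpn6 at 2.83, and the highest values below the threshold were those of Prosalpha5, Prosbeta7 and the second copy Prosbeta5R1 (0.73).

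Of the 41 members that were not bound, 25 had a ranked summit within 500 bp, with signals between 6.97 and 62.8. Among the base genes these were Rpt5, the scaffold gene Rpn1 (36.3, pair 21.1 and 16.1), the other scaffold gene Rpn2 (28.3, pair 20.9 and 7.40) and the ATPase genes Rpt4 (28.3, pair 31.5 and 8.40) and Rpt2 (13.9, pair 16.2 and 7.93). In the rings, beside those above, Prosalpha4 had 40.1 (pair 21.5 and 14.3), Prosalpha7 31.1 (pair 15 and 14.3), Prosbeta6 26.5 (pair 15.6 and 9.38), Prosalpha2 24.9 (pair 16.3 and 4.03) and Prosbeta3 6.97. Second copies with a ranked peak ran from 11.8 at Rpt4R to 38.7 at Prosbeta5R1 (pair 19.1 and 14.8). All lay below the 82.5 of the weakest bound member, a gap that the threshold itself helps to make. The other 16 unbound members had none in either pooled ranked list. They were the constitutive genes Prosalpha1, Prosalpha6, Prosbeta4, Prosbeta5 (the beta subunit with the chymotrypsin-like site), Rpn10, Rpt1, Rpt3 and Rpt6, and the second copies Prosalpha1R, Prosalpha3T, Prosalpha6T, Prosbeta2R2, Prosbeta4R1, Prosbeta5R2, Rpn12R and Rpt3R. The nearest thresholded summit of the 41 genes lay between 526 and 72937 bp from a TSS, with a median of 9609 bp, and beyond 10000 bp for 20 of them. The nearest was at the second copy Prosbeta5R2, where a peak with a signal of 88.5 lay 526 bp from the TSS and the list of replicate 2 held a summit within 500 bp with a signal of 40.8. Whether reads that map equally to a gene and its second copy were kept is not given in the sources used here.

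Most of the bound members shared their peak with a neighbour. At 6 of 7 (85.7%) a further protein-coding TSS stood within 500 bp of the strongest summit, against 1237 of 1984 bound protein-coding genes (62.3%), and Rpn11 was the exception. The summit was nearer to the member at Rpn3, Rpn13 and Prosalpha3, and nearer to the neighbour at Rpn5 (Hat1), Prosbeta2 (mRpL39) and Rpn6 (ave). ChIP-seq gives no sign of which of a pair of starts a protein acts on, so these peaks cannot be given to one gene. The strongest summit lay upstream of the nearest TSS in 6 of 7 bound members (85.7%) and in 1730 of 1984 bound genes (87.2%), at a median distance of 133 bp and 151 bp.

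**Figure D4:**
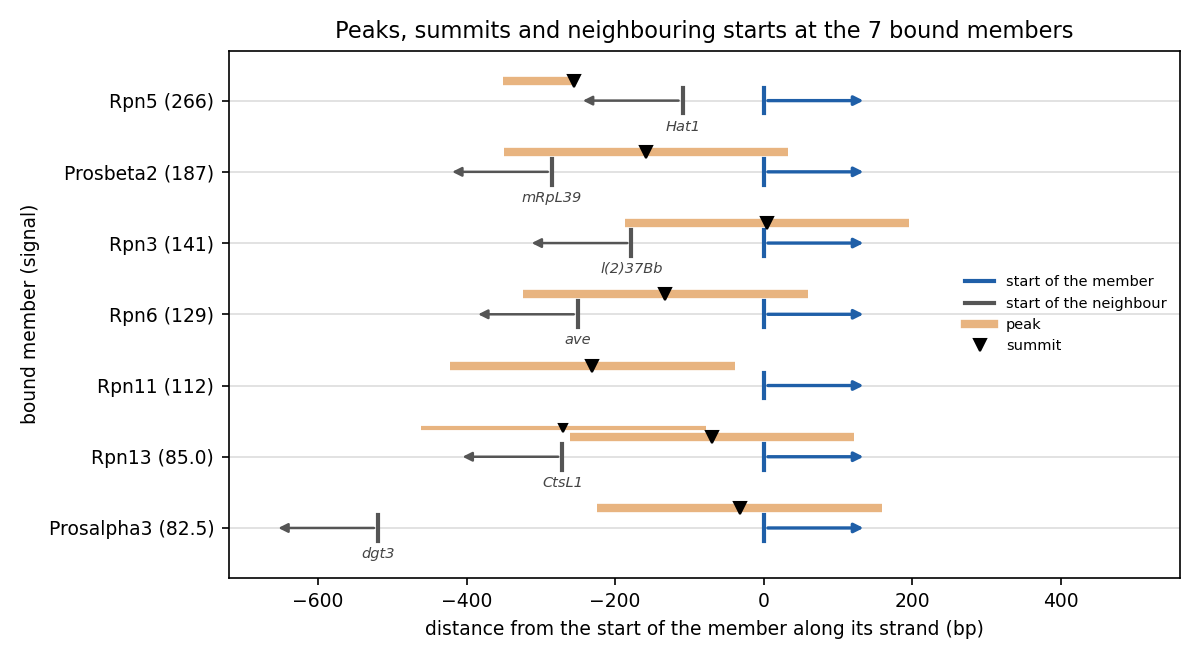
Maps of the 7 bound members drawn to scale, with distance from the member's nearest TSS in bp on the horizontal axis and transcription of the member running to the right; bars are the thresholded peaks, triangles the summits and arrows the starts of the member and of its protein-coding neighbours. Rpn11 has no other start in view within 500 bp of its summit, and the Rpn5, Prosbeta2 and Rpn6 summits lie nearer to the neighbour's start.

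Such neighbours are common among these genes. A protein-coding start on the opposite strand lay head to head within 1000 bp at 26 of 48 members (54.2%), against 5052 of 13968 genes (36.2%). It did so at 22 of 32 constitutive subunits (68.8%) and at 4 of 16 second copies (25%). At Rpt5 the gap to RanBP3 was the shortest. Over the members the gap between the starts ran from 42 to 632 bp, with a median of 254 bp. Of the 26 members so arranged 6 were bound (23.1%), against 27.0% of the 5052 protein-coding genes with such a neighbour. Of the 22 other members 1 was bound (4.55%), against 6.95% of 8916 genes. Within each arrangement the members' share was near that of genes in general, and the difference was not tested. Of the 8 lid genes 6 had such a neighbour (75%), and 3 of those 6 were bound (50%). Of the 2 other lid genes 1 was bound (50%). These lid counts are too few to compare with genes in general.

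In sequence, the summits at members were set beside all summits and all protein-coding starts in windows of 100 bp either side, with each motif read on both strands. The words were TATAAA, TATCGATA (the DRE, which the factor Dref binds), CGATA (the word bound by BEAF-32, which every DRE contains), TGACNNNGC (the antioxidant response core of cnc), CAGCTG (an E-box) and GAGAG (the word of the GAGA factor), together with Ohler 1, Ohler 6 and Ohler 7. The DRE word was in 3 of 8 member windows (37.5%), against 2.22% of all summits and 6.44% of protein-coding starts. These were the windows of Prosalpha3 and Rpn3 and that of the weak second peak of Rpn13. CGATA was in 5 of 8 (62.5%), against 25.1% of summits and 37.1% of starts. At the members' own starts, bound or not, the DRE word was in 12 of 61 windows (19.7%) and CGATA in 33 of 61 (54.1%). Member summits lie within 500 bp of a TSS by rule, whereas all summits were taken at any distance, so the 2 sets are unlike. TATAAA was in 3 of 8 (37.5%), close to the 34.8% of all summits and above the 26.9% of starts, in Rpn5, Rpn6 and Rpn11. Ohler 7 was in 2 of 8 (25%), against 7.54% of summits and 9.48% of starts. GAGAG was in 1 window (12.5%), against 21.7% of summits and 25% of starts, and TGACNNNGC, CAGCTG, Ohler 1 and Ohler 6 were in none of the 8, against 4.82%, 8.21%, 0.417% and 0.391% of all summits. Both Rpn13 windows overlap, so the 8 are not separate places.

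The DRE did not stand at the summit itself. Within 50 bp it was in none of the 8 windows, and within 150 bp in 5, against 0.913% and 3.57% of all summits. Both Rpn13 windows are among the 5 and hold the same copy. The nearest copies lay just past 50 bp, at 53 to 60 bp from the weak Rpn13 summit and 56 to 63 bp from that of Prosalpha3. Its place relative to the starts varied. The copy at Prosbeta2, 95 to 102 bp upstream of the summit, lay 25 bp upstream of the mRpL39 TSS and 253 bp from that of Prosbeta2. A further copy lay 3 bp upstream of the Prosbeta2 TSS and ran past the end of the printed run. The copy at Rpn3 lay 71 to 78 bp downstream of the summit and 56 bp upstream of the second Rpn3 TSS, and that at Prosalpha3 lay 88 bp upstream of its TSS. At Rpn13 the copy lay 54 bp upstream of the CtsL1 TSS.

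The word was also counted at the starts, by gene. Within 100 bp of a TSS it stood at 10 of 48 members (20.8%), against 1185 of 13968 genes (8.48%). Of these, 9 were constitutive (28.1% of 32), namely Prosalpha3, Prosalpha5, Prosalpha6, Prosbeta2, Prosbeta6, Rpn3, Rpn7, Rpn9 and Rpt5, and 1 was the second copy Rpt3R (6.25% of 16). It stood at 3 of the 7 bound members (42.9%; Prosalpha3, Prosbeta2 and Rpn3) and at 7 of the 41 that were not bound (17.1%), 6 of them among the 25 unbound constitutive subunits (24.0%). Over the genome 19.7% of genes with the word within 100 bp of a TSS were bound, and 13.7% of genes without it. By arrangement the gap was small, since 197 of 710 divergent genes with the word were bound (27.7%), against 27.0% of all divergent genes, and 37 of 475 other genes with it (7.79%), against 6.95%. In base composition the 8 member summits had a median of 69.9% A and T in windows of 201 bp (56.7% to 75.1%), against the 64.7% of all summits. Member starts had 62.7%, against 57.7% over protein-coding starts. A match is a description of letters and does not show that a factor binds there.

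The set of bound members changed with the list. At an IDR of 0.001 it was reduced to 4 members (8.33%, Rpn5, Prosbeta2, Rpn3 and Rpn11), against 10.6% of protein-coding genes, with 3 of 8 lid genes (37.5%). The conservative list gave 7 members, against 13.9% of genes, with Prosbeta1 in place of Prosalpha3. Replicate 1 alone gave 5 (10.4%, Rpn5, Prosbeta2, Rpn3, Rpn6 and Prosalpha3), against 12.9% of genes. Replicate 2 alone gave 5 (Rpn5, Prosbeta2, Rpn3, Rpn11 and Prosbeta5R2), against 10.2%. Each replicate alone held 3 of 8 lid genes. A window of 250 bp gave 6 (12.5%, without Rpn5), against 11.1% of genes. A window of 1000 bp gave 8 (16.7%, with Prosbeta5R2), against 16.7%. Counting any base of the peak gave 8, against 15.3%, and the 5′ end of the gene record as the only TSS gave 6 (12.5%, without Rpn6), against 12.5%. Rpn3 and Prosbeta2 were bound under all 8 of these settings, and the lid share lay between 37.5% and 50%.

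Outside the particle, a list of 31 further genes of the ubiquitin pathway had 8 bound (25.8%), against 14.2% of protein-coding genes. Of the 17 with a divergent neighbour 4 were bound (23.5%), against 27.0% of divergent genes, and of the 14 others 4 (28.6%), against 6.95%. These are counts of few genes, and no test was run on them. The list was chosen with earlier results of these data known, so its shares may reflect that choice. Among genes of proteasome assembly, activators and partners, 4 of 8 were bound (50%). They were Pomp, the chaperone that matures the core particle, with a signal of 219 and a pair of 129 and 93.7, CG12321 (304, pair 162 and 140), CG9588 (143, pair 76.8 and 64.6) and ntc, which encodes an F-box protein (107, pair 59.4 and 48.3). Of 5 activating and conjugating enzymes 2 were bound (40.0%), the conjugating enzyme genes ben, with a signal of 315 and a pair of 180 and 131, and eff, with 98.3 and a pair of 49.8 and 44.8. Of 5 regulators 2 were bound, namely cnc, the transcription factor that drives proteasome genes in stressed cells (115, pair 67.8 and 44.7), and Pngl, the N-glycanase (76.6, pair 39.4 and 35.6). The cnc summit lay 304 bp downstream of an inner TSS, far from the 5′ end of the gene. With the 5′ end of the gene record as the only TSS, cnc was not bound. None was bound of the 4 ubiquitin genes, the 3 deubiquitinases, the 3 shuttle genes or the 3 segregase genes. The peaks of CG12321 (with MED17), CG9588 (with Lkb1) and ntc (with CG32264 and IntS10) also lay within 500 bp of those neighbours. The CG12321 summit was 103 bp from the neighbour's TSS and 262 bp from its own. The CG9588 summit was 234 bp from the neighbour's TSS and 366 bp from its own. At ntc the summit was 44 bp from its own TSS and 44 bp from that of the nearest neighbour. At a window of 250 bp the list had 4 bound genes (12.9%; eff, ben, ntc and Pngl), near the 11.1% of protein-coding genes at that window. Of the assembly, activator and partner genes only ntc was among them. Peaks at cnc, eff and ntc were not past the threshold in both replicates taken alone, since cnc was held by replicate 1, eff by replicate 2 and ntc by neither.

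The tagged gene itself, CG4404 (FBgn0030432, X, 12903745 to 12906018, minus strand), was not bound by this measure, as its nearest thresholded summit lay 1324 bp from the TSS with a signal of 35.3.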

How the data were processed

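The data are ChIP-seq peak lists of CG4404-eGFP in whole embryos, 2 replicates of 1 group. The authors mapped to dm6, per the labels, and deposited ranked and IDR-thresholded peak lists per replicate and for the pooled replicates; which aligner and peak caller they used is not given in the sources used here. Each peak's deposited signal has an unstated scale. The ranked lists also hold the deposited −log10 of the IDR, and all peaks of the pooled thresholded list had an IDR of 0.01 or less. Read depth is unknown, so the number of peaks limits precision.

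Summits are the deposited start plus the deposited offset, in 1-based dm6 coordinates. Gene models were those of BDGP6, the same assembly. Bound genes had a summit within 500 bp of any annotated TSS. Counts were made in Python 3.11.15 with numpy 2.4.6, figures with matplotlib 3.10.9, and the counting was tested on simulated data. With 1 group, no test was run. The members, the lists and the settings were chosen with earlier results of these data known; the counts of genes with a DRE, the base composition, the repeats and the printed windows were added after these data were seen. Of 32 pathway symbols 31 matched. The text names every bound member and pathway gene, the neighbours sharing a summit, the 4 other members with the highest −log10 IDR, members without a ranked peak and CG4404. In addition, Prosbeta5R2, the other unbound members and the members with a DRE are named from their values.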

Additional observations from a re-analysis of the deposited data

How the results depend on the processing

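The counts of bound members moved with the IDR. At 0.001, 4 members were bound, all constitutive, and 3 of them shared their peak, against 7, 7 and 6 at the threshold of the authors. Leaving out either replicate gave 5 bound members, 4 to 5 constitutive ones and 3 to 5 with a shared peak. Of 8 settings, 7 kept the count of bound members within 1.5 times, as did 6 for the constitutive members, 6 for shared peaks and 7 for the ubiquitin pathway, where a window of 250 bp gave 4 in place of 8. Asking for an overlap of at least 0.5 of the length of both peaks left 2 of the 3 peaks shared by the replicates. Motif counts depended on the window. Within 50 bp of the 8 summits TATCGATA was found at 0, CGATA at 1 and Ohler 7 at 1, and within 150 bp TATCGATA at 5 and Ohler 7 at 6. The counts within 150 bp include both Rpn13 windows, which hold the same copy of TATCGATA and the same copy of Ohler 7. The cause was not tested, beyond the wider windows holding more letters. No paired analysis was possible because there was 1 group. Read depth was not known, and a peak missing from a list is not shown to be absent.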
